A study of Mus musculus with 32 samples.

Results

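The 10 genes described here encode the proteins that end the light response of a photoreceptor and adjust it by calcium: Guca1a, Guca1b, Gucy2e, Gucy2f, Rcvrn, Grk1, Rgs9, Rgs9bp, Gnb5 and Slc24a1. They were taken by symbol from an expression table of 26629 named genes, all 10 were found, and all 10 were at 1 FPKM or more in every library, as were 12460 genes in all. FPKM counts fragments per kilobase of transcript, scaled to the mapped fragments of the library, so levels of different genes can be set side by side.

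Female C57 BL/6J mice, 16 weeks old at the start, were flown for 37 days on the International Space Station or kept on the ground in the same kind of animal enclosure, and the labels give an age of 21 weeks. Retinal RNA was sequenced in 9 spaceflight and 7 ground habitat control libraries, and retinal DNA in 8 and 8 libraries by reduced representation bisulfite sequencing (RRBS), which reads CpG methylation in fragments cut at CpG-rich sites. Each library came from 1 retina of 1 mouse, and both groups carried the unaltered genome of their strain. Flight mice were killed and frozen in orbit, and retinas of both groups were later cut out of frozen eyes from thawed carcasses. Library M21 was spaceflight by its source name and ground control by its condition label. It was counted as spaceflight. The ground control column M40 is in doubt as well, since the labels title an RNA library M37 and none M40, and results that turn on it are also given without M40, or without M32 and M40.

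In a rod or cone in the dark, cyclic GMP holds channels in the outer segment open and calcium flows in. Light leads to the breakdown of cyclic GMP, the channels close, and the exchanger encoded by Slc24a1 goes on pumping calcium out of the rod. The fall in calcium releases recoverin from the kinase encoded by Grk1 and turns on the guanylate cyclases through their activating proteins, while the RGS9 complex shuts off transducin. These genes are known for slow recovery from light, or for dystrophies of rods and cones, when they are lost or altered.

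None of the 10 genes was called as changed between spaceflight and ground control retinas. A gene was called where it met 3 thresholds, a fold change of at least 1.2, a p up to 0.05 and, after Benjamini-Hochberg adjustment, a p up to 0.3, in a limma fit of log2(FPKM + 0.1) over all genes tested, and 24 genes were, or 0.193%. With p up to 0.05 before adjustment there were also 0 members, against 1418 genes or 11.4% of those tested. The ranges of both groups overlapped for all 10 members, and 0.0883% of all genes had ranges that did not. The members' log2 changes lay between -0.24 and 0.23, with 5 above and 5 below zero and a median of 0.02, beside -0.01 over all genes tested. Both groups were bulk tissue, in which fewer cells of a type and less RNA per cell cannot be told apart.

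**Figure D1:**
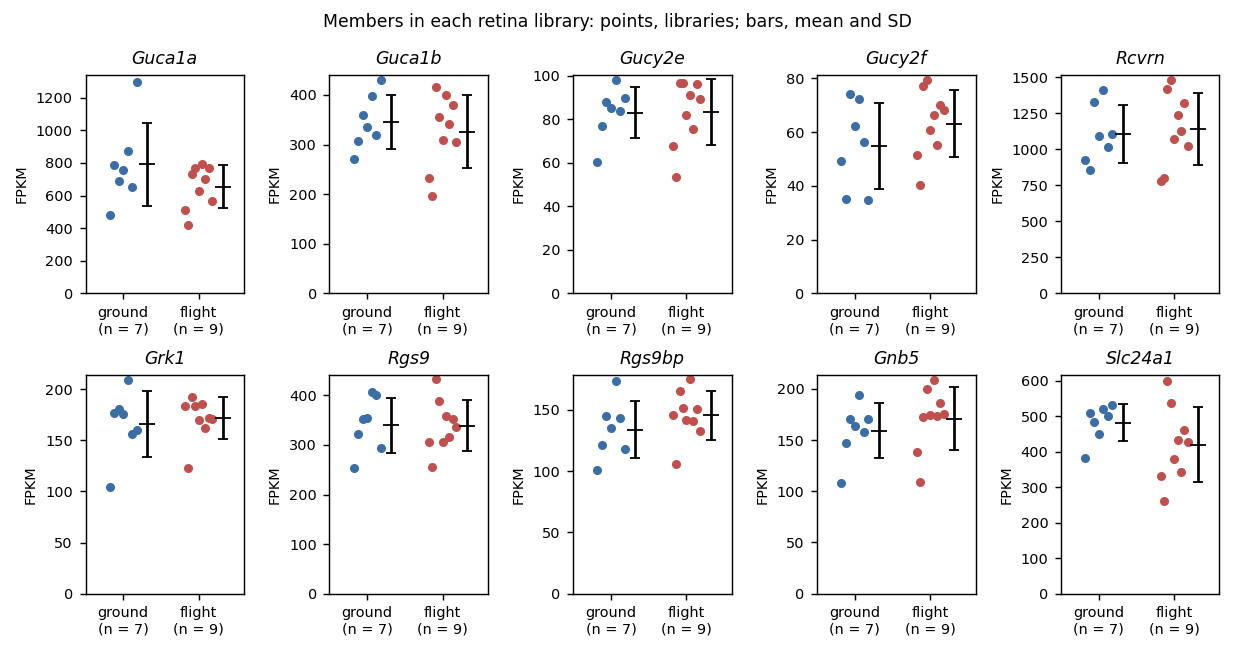
FPKM of the 10 genes in each of 7 ground control and 9 spaceflight retina libraries (points), with the mean and SD of each group (bars), every axis starting at 0. The groups overlap in every panel, and 1 ground control library stands at 1299 FPKM for Guca1a.

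Low values gathered in a few libraries of both groups. Library M22 was among the 3 lowest libraries for all 10 genes, M31 for 7 and M21 for 6, and the lowest value of a gene fell in 1 of these 3 libraries for 9 of the 10. M21 and M22 are spaceflight and M31 is ground control, and all 3 are left eyes by their labels. The left-eye spaceflight libraries M29 and M30 were not among the 3 lowest for any gene. The 3 libraries were also lowest in a reference of 12 other rod genes, by 0.47, 0.64 and 0.36 on the log2 scale below the mean library for M21, M22 and M31.

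Markers of lens or of corneal and skin epithelium stood high in the same libraries. The summed FPKM of 6 lens genes was 27582 in M22 and 40811 in M31, against 1.6 to 1496 in the other 14. Of these 6, Cryba1 and Crygs were listed at 0 in at least 1 library. That of 6 corneal and skin epithelium genes was 903 in M21 and 889 in M22, against 10.3 to 91.6 in the other 14, with Krt5 and Krt14 at 0 somewhere. Pigment epithelium markers did not follow that pattern: their sum was 8284 in M31, 5614 in M23, 1875 in M21 and 884, the lowest of the 16, in M22. Melanocyte markers were highest in M31 at 1075 and next in M32 at 702. Summed fibroblast markers were 234 in M31, 147 in M22, 119 in M32 and 91.1 in M21, and at most 65.4 in the rest. The part of these tissues in the low member values was not tested. The summed rod markers, which check the tissue label, were 11481 to 25570 FPKM in spaceflight and 15757 to 24520 in ground control libraries. Short structured RNAs took 50.8% to 81.6% of the summed FPKM of a library. Without M21, M22 and M31, 6.4% of all genes were called and again none of the 10.

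**Figure D2:**
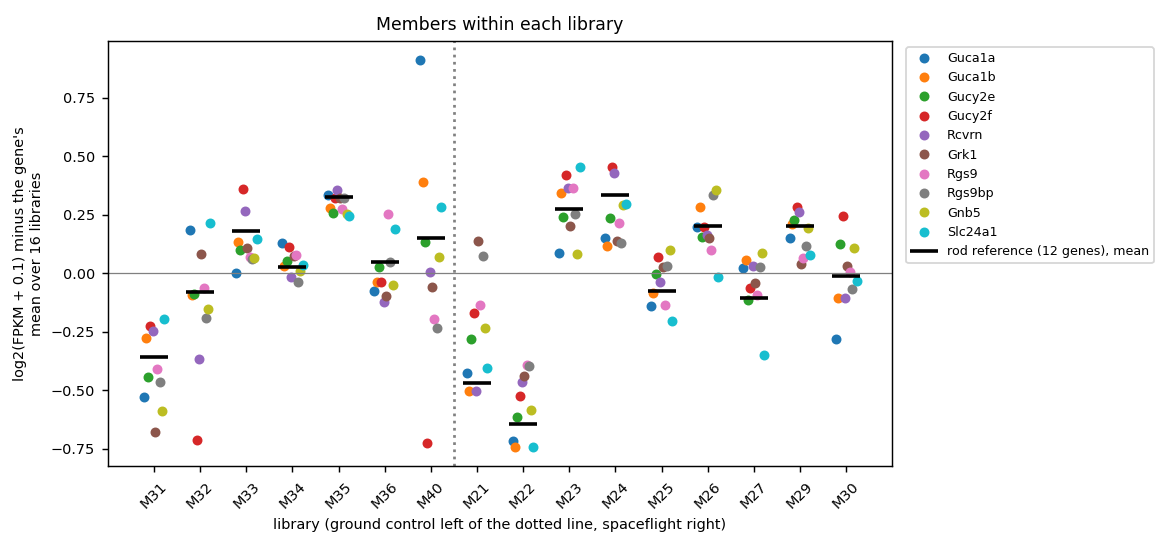
The log2 level of each gene in each library, less that gene's mean over 16 libraries (points, 1 colour a gene), with the mean of 12 rod reference genes (black bars). M31, M21 and M22 lie low for most genes. Gucy2f lies below the others in M32 and M40, and Guca1a lies above the others in M40.

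The 10 genes kept to a steady order of levels. Rcvrn was highest, at a mean of 1125 FPKM over the 16 libraries, followed by Guca1a at 714, Slc24a1 at 447, Rgs9 at 339, Guca1b at 335, Grk1 at 169, Gnb5 at 166, Rgs9bp at 141, Gucy2e at 83.2 and Gucy2f at 59.6. Each gene stood above the next in 15 or 16 of 16 libraries, with 2 exceptions. Rgs9 was above Guca1b in 9 libraries and Grk1 above Gnb5 in 7, so those neighbours did not differ beyond their spread.

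Guca1a and Guca1b encode the guanylate cyclase activating proteins, which sense calcium and switch the cyclases on as calcium drops. Guca1a, the more abundant, ranged over 421, 701 and 792 FPKM (lowest, median and highest) in spaceflight and over 479.5, 756 and 1299 in ground control libraries. The highest value, in M40, was well above the next ground control library at 871, and the rest of the groups ran together. The means were 655 ± 130 (SD, n = 9) and 791 ± 255 (SD, n = 7), a log2 difference of -0.24 with a standard error of 0.18 (limma, adjusted p = 0.581). Without M40 the log2 difference was -0.11.

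Guca1b ranged over 196, 341 and 417 FPKM in spaceflight and 271, 336 and 429 in ground control libraries. Its means of 326 ± 74.2 (SD, n = 9) and 346 ± 54.5 (SD, n = 7) differed by less than either SD, with a log2 difference of -0.11 (limma, adjusted p = 0.785). The sign of this difference changed with the scale: it was 0.01 when FPKM was rescaled to a sum without short structured RNAs. That rescaling moved the median of all genes to 0.11, so that relative to it the value stayed negative.

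Gucy2e and Gucy2f encode the membrane guanylate cyclases of the outer segment, which make the cyclic GMP that reopens the channels. Gucy2e ranged over 53.5, 89.4 and 96.9 FPKM in spaceflight and 60.2, 85.0 and 98.0 in ground control libraries. Its means were nearly equal, at 83.2 ± 15.1 (SD, n = 9) and 83.1 ± 11.9 (SD, n = 7), and the 95% interval of the log2 difference ran from -0.28 to 0.26.

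Gucy2f ranged over 40.2, 66.3 and 79.2 FPKM in spaceflight and 34.9, 56.3 and 74.2 in ground control libraries. The values of 34.9 in M40 and 35.3 in M32, both ground control, were its lowest anywhere, under the 40.2 of the lens-rich spaceflight library M22. The means were 63.2 ± 12.6 (SD, n = 9) and 54.9 ± 16.0 (SD, n = 7), with a log2 difference of 0.23 and a standard error of 0.18 (limma, adjusted p = 0.595). Without M32 and M40, left out after their values were seen, the difference was -0.0041, so the gap between the means rested on those 2 libraries.

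**Figure D3:**
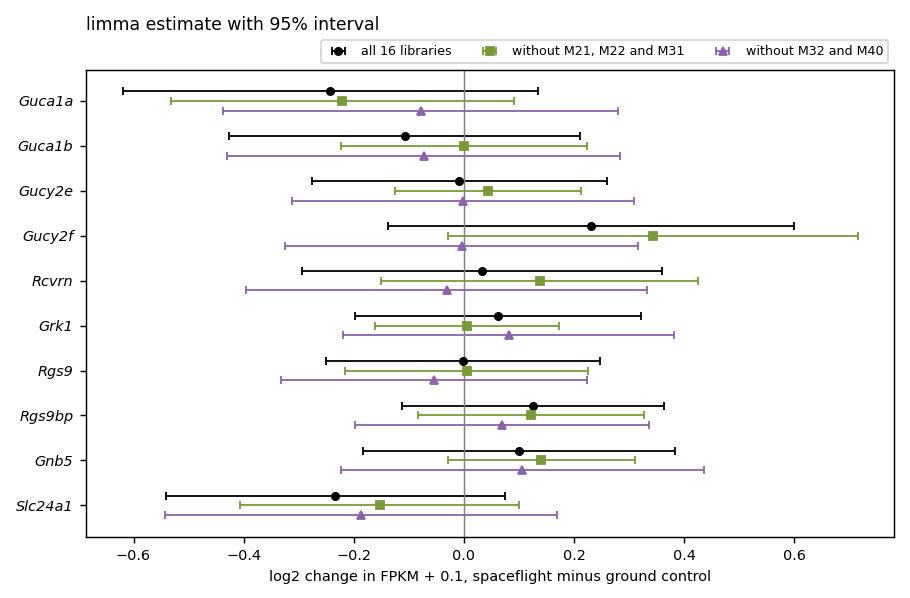
Log2 change of each gene, spaceflight minus ground control, with its 95% interval from limma, for all 16 libraries and for 2 subsets chosen after the values were seen. Every interval spans 0, and the estimates for Guca1a and Gucy2f move toward 0 without M32 and M40.

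The letters TAATCC, the core bound by homeodomain factors such as CRX and OTX2 of photoreceptors, were searched on both strands (so also as GGATTA, with no overlap between hits) from 250 bases before to 50 bases after each gene start. RefSeq promoters of GRCm38.p6 were at hand for 7 of the 10 genes: Guca1a, Gucy2e, Gucy2f, Grk1, Rgs9, Gnb5 and Slc24a1. The letters occurred in 4 of the 7 and in 2320 of 32851 promoters of the same length, or 7.06%. The 5 windows of 30 bases that hold them are shown because 3 of the 4 genes belong to the cyclase step, with the motif in capitals and each read 5′ to 3′ along the strand of its gene.
Guca1a: cctgttaagaagGGATTAgcagactgcaaa
Gucy2e: atcggcttggagGGATTAagggctgcagcg
Gucy2f, farther hit: gatcaatttaaaGGATTAcaagtgtcactc
Gucy2f, nearer hit: cactctaaatccTAATCCaggtcttggtgt
Gnb5: ctgagctgcaagtccagataaaagGGATTA
The motif began 57 bases before the start of Guca1a, 42 before that of Gucy2e and 84 and 59 before that of Gucy2f. It began 6 bases before the first of the 2 starts of Gnb5. The windows lie at chr17:47400646-47400675, chr11:69237047-69237076, chrX:142197003-142197032, chrX:142196978-142197007 and chr9:75306258-75306287, the first 4 on the minus strand. A match is a description of letters and not of a bound site.

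Rcvrn encodes recoverin, the calcium sensor that holds back the Grk1 kinase in the dark. It ranged over 778, 1127.5 and 1483 FPKM in spaceflight and 855, 1091 and 1410 in ground control libraries, with the 2 lowest values in M21 and M22. The means were 1140.5 ± 251 (SD, n = 9) and 1104 ± 201 (SD, n = 7), and the 95% interval of the log2 difference ran from -0.29 to 0.36.

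Grk1 encodes the kinase that tags the lit visual pigment for arrestin. It ranged over 123, 172 and 192 FPKM in spaceflight and 104, 176 and 209 in ground control libraries. The lowest value of each group, in M22 and M31, lay apart from an otherwise narrow band. The means were 171 ± 20.4 (SD, n = 9) and 166 ± 32 (SD, n = 7), and the 95% interval of the log2 difference ran from -0.20 to 0.32.

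Rgs9, Rgs9bp and Gnb5 encode the 3 parts of the complex that speeds up GTP hydrolysis by transducin: the catalytic subunit, its membrane anchor R9AP and the Gβ5 subunit. Rgs9 ranged over 256, 337 and 432 FPKM in spaceflight and 253, 352 and 406 in ground control libraries. Its means of 339 ± 52.0 (SD, n = 9) and 340.0 ± 55.5 (SD, n = 7) gave a 95% interval of the log2 difference from -0.25 to 0.25.

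Rgs9bp ranged over 106, 146 and 175 FPKM in spaceflight and 101, 135 and 174 in ground control libraries. Its means were 146 ± 19.7 (SD, n = 9) and 134 ± 23.5 (SD, n = 7), with a log2 difference of 0.13 and a 95% interval from -0.11 to 0.36. Gnb5, which also pairs with other RGS proteins in the inner retina, ranged over 109, 175 and 209 FPKM in spaceflight and 108, 164 and 194 in ground control libraries. Its means of 171 ± 30.5 (SD, n = 9) and 159 ± 26.7 (SD, n = 7) gave a log2 difference of 0.10 with a 95% interval from -0.18 to 0.38. Without M31 the log2 differences were 0.06 for Rgs9bp and 0.01 for Gnb5.

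Slc24a1 encodes the rod sodium, calcium and potassium exchanger. It ranged over 262, 428 and 599.7 FPKM in spaceflight and 383, 499 and 532 in ground control libraries. The spaceflight libraries were spread on both sides of the ground control range, with 4 below it and 2 above. The means were 419.7 ± 105 (SD, n = 9) and 482 ± 51.4 (SD, n = 7), a log2 difference of -0.23 with a standard error of 0.15 and the smallest p of the 10 genes (limma, adjusted p = 0.527). Without M22 the log2 difference was -0.15.

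Ratios of partner genes were compared within libraries, since a ratio does not depend on how a library was scaled. Of 6 ratios, none passed an adjusted p of 0.05 in a two-sided exact permutation test with 11440 arrangements of the libraries. The exchanger relative to Cnga1, the rod channel subunit it sits beside, came nearest. The ratio of Slc24a1 to Cnga1 ran from 0.97 to 1.30 in spaceflight and from 1.07 to 1.64 in ground control libraries, with M32 at 1.64 and M40 at 1.57 on top. The log2 difference was -0.26 (exact permutation p = 0.0098, adjusted over 6 ratios 0.059). Leaving out 1 library gave adjusted values from 0.017 to 0.129, and the test passed without M23 (0.017), M33 (0.044), M34 (0.044) or M35 (0.017). Without M32 and M40 the difference was -0.15 (exact permutation p = 0.063, adjusted 0.244). In right eyes only, with 5 spaceflight and 3 ground control libraries, it was -0.13 (exact permutation, adjusted 0.339). Those libraries allow only 56 arrangements, too few for 1 ratio alone to pass after adjustment. With M21 counted as ground control the difference was -0.23 (exact permutation, adjusted 0.181).

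The ratio of Rgs9 to its anchor Rgs9bp ran from 2.05 to 2.61 in spaceflight and 2.34 to 2.79 in ground control libraries, a log2 difference of -0.13 (exact permutation p = 0.045, adjusted 0.135). Gucy2e to Gucy2f was tight in spaceflight, from 1.22 to 1.38, and spread from 1.18 to 2.57 in ground control libraries, where M40 stood at 2.57 and M32 at 2.19 above the next at 1.48. The log2 difference of -0.24 (exact permutation p = 0.127, adjusted 0.254) was 0.0027 without M32 and M40. Guca1a to Guca1b was likewise highest in M40 at 3.02 and M32 at 2.55, and its log2 difference of -0.14 was -0.0055 without those libraries. Rgs9 to Gnb5 and Grk1 to Rcvrn differed by -0.10 and 0.03 on the log2 scale, with adjusted exact permutation values of 0.342 and 0.838. The last of these changed sign without M21, to -0.05.

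**Figure D4:**
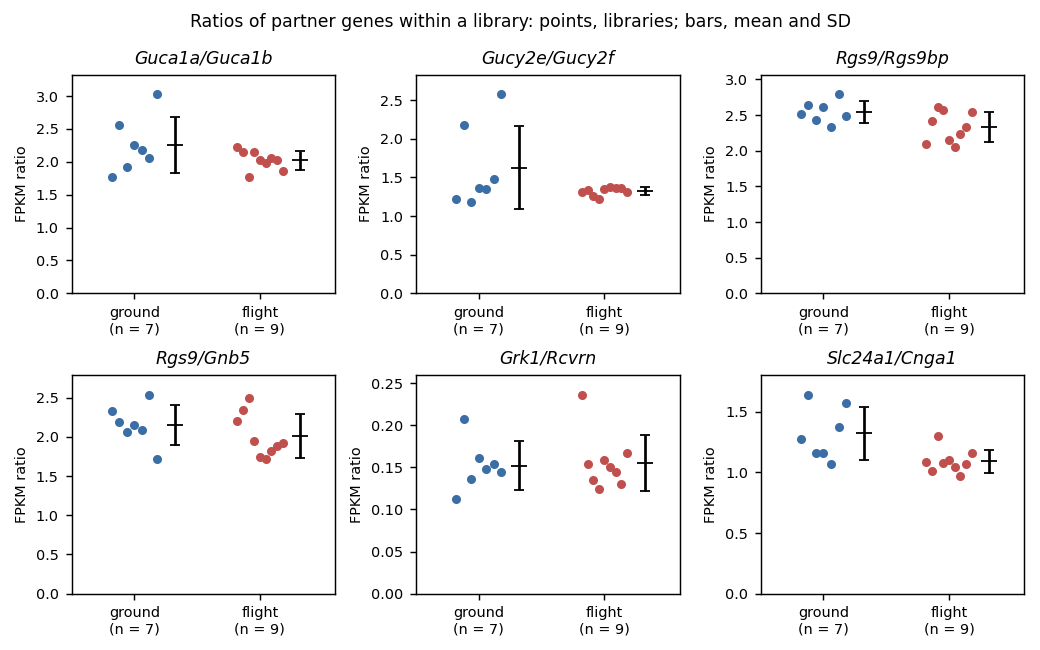
FPKM ratios of 6 pairs of partner genes in each library (points) with the mean and SD of each group (bars), axes starting at 0. Ground control libraries M32 and M40 are the 2 highest for Guca1a/Guca1b, Gucy2e/Gucy2f and Slc24a1/Cnga1.

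Across libraries the members moved together. With group means taken off, all 45 pairwise correlations of log2 level over the 16 libraries were above 0, with a median Pearson r of 0.75, a lowest of 0.12 for Guca1a with Gucy2f and a highest of 0.95 for Gucy2e with Gnb5. The genes of 1 library share the rod content and scaling of that library, so the values are a description. The part of rod content and scaling in the correlations was not tested. After centring each library on the 12 rod reference genes the median r was 0.03 and 25 of the 45 pairs were above 0. The SD of log2 level within groups dropped in all 10 genes, from between 0.23 and 0.38 to between 0.07 and 0.28.

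Some pairs stayed close after that centring. Rgs9 with Rgs9bp kept an r of 0.80, as did Grk1 with Rgs9bp, and they stood at 0.75 and 0.87 without M32 and M40. Guca1a with Gucy2f was at -0.84, a value that was -0.31 without those 2 libraries.

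The genes most like each member in log2 level over the 16 libraries were sought among 12459, with group means taken off. Guca1b was nearest to Nrl, the rod transcription factor, to Guk1 and to Osbp2, each at a Pearson r of 0.95. Rcvrn was nearest to Pde6d, a carrier of lipid-tagged photoreceptor proteins (0.95), Rom1, a disc rim protein (0.95), and Dym (0.95). For Slc24a1, Fam193a (0.93) and Epb4.1 (0.92) were among the nearest. Gnb5 had Slc25a33 and Rdh12, a retinol dehydrogenase of photoreceptors, and the member Gucy2e, each at 0.95.

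Gucy2e was nearest to Ap2a2 (0.98), Rdh12 (0.97) and Egflam (0.96), and Rgs9 to Herc3 (0.91), Prom1 (0.91) and Ccndbp1 (0.90), of which Prom1 is a disc protein. Rgs9bp was nearest to Slc16a6 (0.95), Dixdc1 (0.94) and C030046E11Rik (0.94). Grk1 was nearest to Stk38l (0.95), Camsap1 (0.95) and Madd (0.94), with lower rank correlations of 0.80, 0.68 and 0.78. Guca1a was nearest to Tomm5 (0.96), Man2a2 (0.96) and Unc119 (0.95), a trafficking factor of photoreceptors. Gucy2f was nearest to Vldlr (0.98), Arfgef1 (0.98) and Xiap (0.97), and these stood at 0.98, 0.97 and 0.95 without M32 and M40.

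Around the members, 65 genes of 7 lists were tested: the rod and cone cascades, recovery partners, neuronal calcium sensors, the R7 RGS complex, other guanylate cyclases and other GRK kinases. None was called by limma. Before adjustment 3 of the 65 reached a p of 0.05, beside 1418 of 12460 genes tested, or 11.4%. In the rod cascade 0 of 10 genes were called, with a median log2 change of -0.02. Its smallest p values belonged to Gngt1, the rod transducin gamma subunit (-0.38, adjusted p = 0.427 by limma), and Cngb1, the channel's second subunit (-0.23). In the cone cascade 0 of 11 were called, with a median of 0.02. There Gnat2, cone transducin, stood at 66 beside 52 FPKM (log2 0.35, adjusted p = 0.438 by limma) and Pde6c, the cone phosphodiesterase, at 0.22. Cnga1 itself had a log2 difference of 0.03.

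Of 19 recovery partners 0 were called, with a median of -0.05. Calm3, one of the calmodulin genes, had the smallest p: the spaceflight mean was 136 ± 13.9 FPKM (SD, n = 9) and the ground control mean 174 ± 35.5 (SD, n = 7), with M40 highest at 249. Its log2 difference was -0.34 with a standard error of 0.11 (limma, adjusted p = 0.345). Leaving out M22, M31, M33 or M35 brought the limma adjusted p to 0.298, 0.229, 0.256 and 0.250, under the threshold. In those fits 2.77%, 11.1%, 6.04% and 7.09% of all genes were called. Other single libraries left out brought the limma adjusted p of Calm3 up to 0.667. Without M40 its log2 difference was -0.25, and the weakest value over all alternatives was -0.15. Rd3, an inhibitor of the cyclases, was next at -0.19. Without M31 it was called (-0.33, limma adjusted p = 0.254), as were Gngt1, Cngb1 and Hpca (0.255, 0.267 and 0.213). Without M40, which held the highest Rd3 and Hpca values, their log2 differences were -0.096 and -0.18. With 1 library left out the limma adjusted p reached 0.901 for Rd3, 0.709 for Gngt1, 0.815 for Cngb1 and 0.795 for Hpca. Without M35 Gnat2 was called (0.43, limma adjusted p = 0.292). Over single libraries left out Gnat2 ran from 0.24 to 0.43, with a limma adjusted p up to 0.735.

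Of 9 neuronal calcium sensors tested 0 were called, with a median of 0.06, and Hpca and Vsnl1 stood at -0.26 and 0.27. Of 6 genes of the R7 RGS complex 0 were called, with a median of 0.06, and Gpr158 and Rgs7bp stood at 0.15 and 0.09. Of 5 other cyclases tested 0 were called, with a median of 0.06, and Gucy1a2 and the natriuretic peptide receptor gene Npr1 stood at 0.26 and -0.32. Of 5 other GRK kinases tested 0 were called, with a median of 0.05, and Grk4 and Adrbk2 stood at 0.24 and 0.17.

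No CpG or promoter of a member that could be tested was called for methylation. A difference of 10 percentage points or more with an adjusted p of 0.05 or under was asked of each promoter, 1000 bp to either side of a gene start, and of each CpG, by logistic regression with overdispersion. Of 20061 promoters 0% were called and of 1071573 CpGs 0% were, and so none of the 7 member promoters with data and none of 310 member CpGs. The members' promoters were Guca1a, Guca1b, Gucy2e, Grk1, Rgs9bp, Gnb5 and Slc24a1. Before adjustment, 5 of the 20061 promoters and 2016 of the 1071573 CpGs reached a p of 0.05 with a difference of 10 points. No promoter or CpG of a member was among them. Without the 10 points, still no member promoter reached a p of 0.05, and the share of all promoters that did was not counted. Of the 310 member CpGs 8 reached it, or 2.58%, beside 4.09% of all CpGs.

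Promoter methylation was low in most of the 7. Rgs9bp, with 41 CpGs, had a spaceflight mean of 0.33% ± 0.16 (SD, n = 8) and a ground control mean of 0.40% ± 0.19 (SD, n = 8). Gnb5, with 54 CpGs around its 2 starts, stood at 1.64% ± 0.28 and 1.48% ± 0.25. Gucy2e, with 34 CpGs that all lay 419 to 983 bases after the start, stood at 4.57% ± 0.84 and 6.24% ± 2.12, with M31 at 10.7% and M39 at 7.98% on top. Its pooled difference of -1.56 points had the smallest p of the members' promoters (logistic regression over all promoters, adjusted p = 0.880). Leaving out 1 library moved it from -1.95 without M32 to -0.91 without M31.

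Guca1b, with 8 CpGs, stood at 5.97% ± 1.29 and 6.46% ± 3.24, and Slc24a1, with 9, at 12.5% ± 2.94 and 12.5% ± 3.05 (SD, n = 8 each). Grk1 was the most methylated, at 22.1% ± 4.11 and 21.3% ± 3.85 over 5 CpGs that lay 91 to 154 bases after the start. The median promoter of all genes stood at 1.05%, and 26.4% of promoters stood at 20% or more. Coverage summed over the CpGs of a promoter averaged from 133 per library for Guca1a to 3209 for Gnb5. A read counts there once for each CpG it covers, so distinct reads were fewer.

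Guca1a had 2 CpGs before its start, 84 and 6 bases away, at 0.60% ± 0.85 and 0.89% ± 0.85 together. The farther one is shown with the CpG in capitals, 5′ to 3′ on the minus strand, at chr17:47400674-47400703 of GRCm38.p6.
Guca1a CpG: gcagccgctggcCGgccacccaccagatcc
Its pooled methylation was 0.15% in spaceflight and 0.50% in ground control libraries, both near the floor at 79 mean reads. Only M21 (1.32%) in spaceflight and M33 (2.38%) and M35 (1.52%) in ground control stood above 0.

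Away from the gene start the members differed in kind. At Gucy2f, Rgs9, Gucy2e, Gnb5, Grk1 and Guca1b the median CpG of the gene outside the promoter stood at 91.7%, 89.8%, 94.3%, 86.2%, 80.8% and 77.5%. Guca1a stood apart from these, with 12 such CpGs in exons and introns between 3.20% and 27.3% and a median of 14.7%. Slc24a1 lay between, with 16 CpGs from 6.51% to 71.1% and a median of 45.3%. Rgs9bp had 4, from 2.68% to 8.97%. At Rgs9, 9 of 10 intron CpGs between 52897 and 53191 bases after the start were low, down to 1.47%, and the one at 53023 bases stood at 90.4% in spaceflight and 87.5% in ground control libraries. Rcvrn had no CpG with enough reads, and Gucy2f and Rgs9 had none at the promoter.

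The largest pooled difference at a member CpG was 9.41 points, at Grk1 6457 bases after its start, with 53.0% in spaceflight and 43.6% in ground control libraries. The SD between libraries there was 16.7 and 11.1 points. At Slc24a1 an exon CpG 3518 bases after the start stood at 50.5% and 57.6% with 125 mean reads, and at Gnb5 an intron CpG stood at 99.6% and 94.2%. Both were among the 8 CpGs above, at an adjusted p of 0.865 in the logistic regression over all CpGs.

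**Figure D5:**
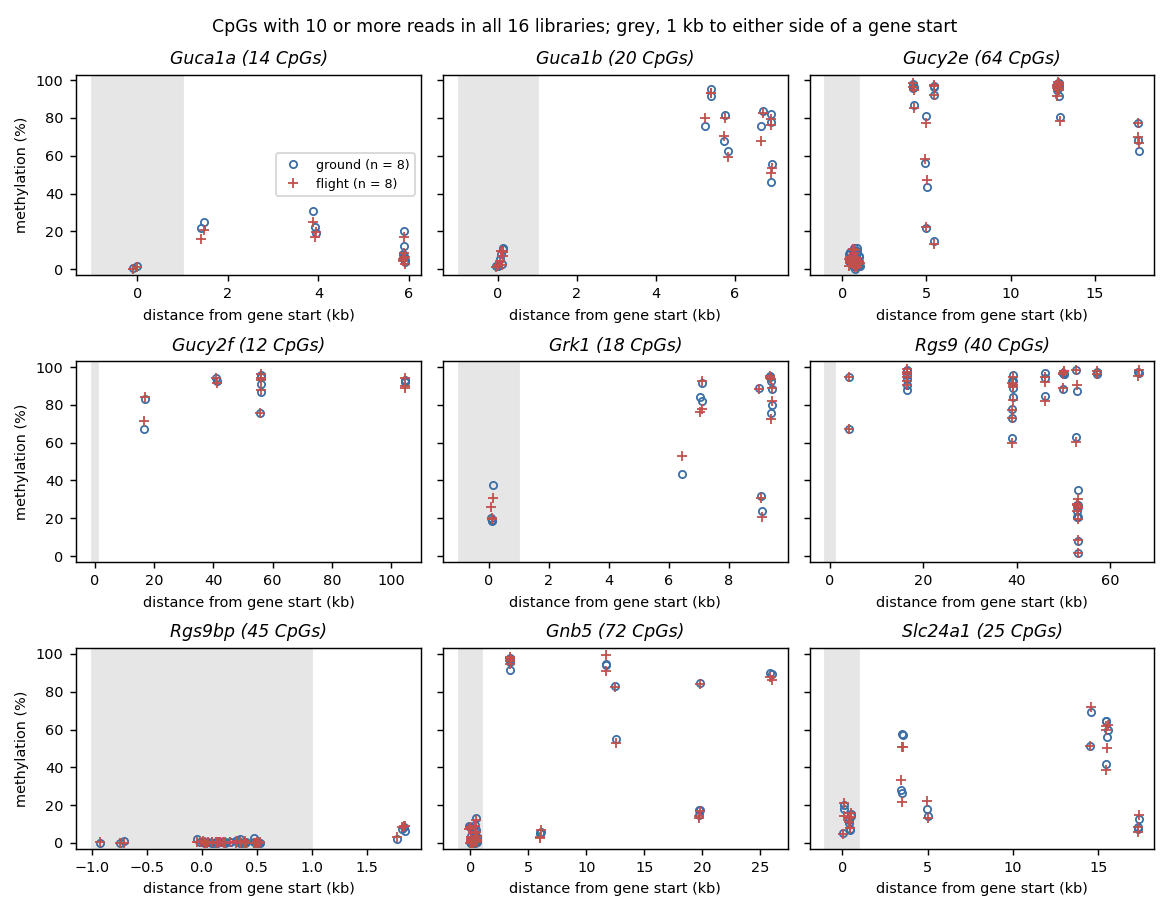
Pooled methylation (percent) of each CpG with 10 or more reads in all 16 libraries, against distance from the gene start in kilobases, for 8 ground control (circles) and 8 spaceflight (crosses) libraries. Grey marks 1 kb to either side of the start, where most CpGs are low, and the CpGs of Guca1a reach at most 31%. Gnb5 has 2 starts, and its distances are from the nearer one.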

How the data were processed

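The RNA libraries were stranded and depleted of ribosomal RNA, per the labels. After trimming with Trimmomatic, the authors used TopHat2 for alignment to GRCm38 and Cufflinks for FPKM. The deposited FPKM table holds 26630 rows, of which 1 names no gene (up to 0.388% of a library's FPKM) and was left out. Read numbers do not stand beside the FPKM values, and no counting error is stated. Columns were matched to libraries by title, or for 6 ground control columns to the group only, because labels and study pair those mouse numbers differently. Of the 6, M40 has no RNA title, while a library titled M37 exists, and a fit with M37 in place of M40 was not run. M34 to M36 are right eyes by either pairing and were the ground control libraries of the right-eye fit. The table also holds 2 columns that were not used here. No 2 of the 16 libraries were identical.

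For RRBS, the authors trimmed with Trim Galore, aligned with Bismark and deposited read counts per CpG cytosine with the percent methylated. Both strands were added and CpGs with 10 or more reads in all 16 libraries kept. Coverage summed over CpG cytosines was 59572205 to 105298542 per library, where a read counts once for each CpG it covers. The median was 39 to 70 reads per shared CpG. Gene starts are those of RefSeq, GRCm38.p6.

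Expression was fitted with limma 3.58.1 with a mean-variance trend, on the genes with 1 FPKM or more in every library. Methylation was fitted by logistic regression with Pearson overdispersion not under 1 and an F-test. Ratios were tested by exact permutation in Python 3.11. Each fit was tested on simulated data. The members, lists and ratios were chosen with earlier results of these data known. Named genes are the 10 members, up to 3 per list with the smallest p (2 are given), Cnga1 and the 3 genes most like each member. One of these is not reported here.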

Additional observations from a re-analysis of the deposited data

Results flagged for a closer look

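Of 46 groups of member values examined, 3 held a library far from the rest, and chance alone marks about 1 in 20 groups. Grk1 stood at 123.1 FPKM in spaceflight library M22, against a group median of 172. The log2 ratio of Grk1 to Rcvrn was -2.08 in spaceflight library M21, against a median of -2.74. Promoter methylation of Guca1a was 2.46% in spaceflight DNA library M25, against a median of 0.33%. It rests on 2 CpGs with a mean summed coverage of 133 per library.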

How the results depend on the processing

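The number of members called was 0 under all 29 distinct alternatives (pseudocounts, filters, scalings, sample weights, eyes, other readings of M21, libraries left out), with adjusted p values from 0.301 up. Of 290 member values under these, 37 changed sign, none of them past the threshold. Without short structured RNAs in the sum, the log2 changes of Guca1b, Gucy2e and Rgs9 were 0.012, 0.11 and 0.12. By the median ratio Gucy2e and Rgs9 were 0.0012 and 0.0073, and centred on rod genes 0.066 and 0.072. With M21 as ground control Guca1b, Gucy2e and Rgs9 were 0.019, 0.062 and 0.031, and with M21 left out Gucy2e and Rgs9 were 0.027 and 0.015. In right eyes Grk1 and Guca1b were -0.0044 and 0.052 and Npr1 0.080. With sample weights Grk1 and Cnga1 were -0.024 and -0.036. Without M21, M22 and M31, Guca1b, Gucy2e, Rgs9 and Npr1 were 0.00019, 0.044, 0.0048 and 0.038. Without M32 and M40, Gucy2f, Rcvrn and Cnga1 were -0.0041, -0.032 and -0.041. Leaving out 1 library gave -0.045 to 0.12 for Grk1, -0.083 to 0.068 for Gucy2e, -0.025 to 0.098 for Rcvrn, -0.070 to 0.047 for Rgs9 and -0.021 to 0.098 for Cnga1.

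Genes called in the 7 lists numbered 0 to 5 when 1 library was left out and 3 without M21, M22 and M31 (Calm3, Gnat2 and Hpca). Of all genes, 11.1% were called without M31 and 6.4% without M21, M22 and M31. Ratios passing the test numbered 0 to 1. Gucy2e to Gucy2f turned to 0.0027 without M32 and M40. Grk1 to Rcvrn was -0.050 without M21, -0.13 with M21 as ground control, -0.12 in right eyes and -0.13 without M21, M22 and M31, and -0.050 to 0.11 over single libraries left out. Promoter differences turned to -0.070 points for Gnb5 within 200 bp, and in right eyes to 1.19 for Guca1b and 2.46 for Slc24a1. With single libraries left out they ran from -1.01 to 0.21 and from -0.92 to 0.46. Of the 30 genes most like a member, 18 remained without taking off group means. The cause of these changes was not tested. No paired analysis was possible because the groups share no mouse numbers.

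Over all genes 24 were called, 10 higher and 14 lower. The number was 0 to 1400 with 1 library left out, 343 without short structured RNAs in the sum (322 higher and 21 lower), 346 with sample weights, 808 without M21, M22 and M31, 13 with a pseudocount of 1, 15 without the trend, and 0 when centred on rod genes, in right eyes, with M21 as ground control or without M32 and M40.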
